A study of Caenorhabditis elegans with 4 samples.

Results

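Chromosome IV of Caenorhabditis elegans carried 971 of the 5338 places at which binding of the transcription factor ELT-3 was called in fed first-stage (L1) larvae. Its peaks are all lines of the deposited list whose chromosome is IV, and the peaks of I, II, III, V and X serve as the comparison. The study used chromatin immunoprecipitation followed by sequencing (ChIP-seq) and has 4 libraries, 2 of ChIP DNA and 2 of input DNA (the sheared chromatin before precipitation), 1 of each for replicates 1 and 2. All came from fed L1 hermaphrodites of strain OP75, grown at 20 °C. The strain carries the unc-119(ed3) mutation on chromosome III and the transgene wgIs75, in which elt-3 is fused to TY1, EGFP and FLAG tags and which supplies unc-119(+). The ChIP libraries differ from the input libraries by precipitation with a goat antiserum against GFP.

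OP75 is 1 line, made by bombardment with a tagged elt-3 gene, so the precipitated protein was the fusion made from the transgene, and the genotype lists no change in the animal's own elt-3 gene. Whole larvae were used, so chromatin of cells without the fusion protein was in each sample too. The deposited list gives for each peak its start and end in the WormBase WS180 build together with a q-value, that is, the p-value of ChIP over input after adjustment for the number of regions tested. A smaller q-value is called stronger here. No value per library is in the list. No spread between replicates can therefore be given, and the sequencing depth behind the peaks is unknown.

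ELT-3 is a GATA factor, a zinc finger protein that binds DNA around the letters GATA. It is known for its role in the hypodermis, the epithelium that covers the worm and secretes its cuticle. There it acts downstream of other GATA factors. The autosomes of C. elegans have a central part and a pair of arms, which differ in gene content and in recombination, and their centromeres are spread along the whole length. Chromosome IV also carries most genes of the piRNAs, small RNAs of the germ line: the RefSeq gene table (assembly WBcel235) places 14714 of its 15363 piRNA genes, or 95.8%, there. That table is of another build than the peaks, so no peak was placed next to a gene or a piRNA cluster, and no sequence was read at a peak.

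With 1 chromosome against 5, an exact permutation test over chromosomes could not give a p-value below 0.167. The values of chromosome IV are therefore set beside those of each other chromosome as a description. The intervals given are at 95%, by the exact binomial method (Clopper-Pearson) where they belong to a share and from order statistics where they belong to a median. They cover counting error over peaks only, and neighbouring peaks are not independent.

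ELT-3 peaks were most frequent in the interior of chromosome IV and rare toward its right end. Counted by midpoint in complete windows of 1 Mb, the 17 windows held between 22 and 91 peaks with a median of 53. From 0 to 4 Mb the windows held 50, 60, 48 and 43 peaks. The window from 4 to 5 Mb rose above them with 82 peaks, followed by 61 from 5 to 6 Mb and 42 from 6 to 7 Mb. Counts from 7 to 12 Mb were 76, 77, 91, 68 and 66, so each of these 5 windows lay above the median. From 12 Mb on the counts were 53, 52, 33, 22 and 28, and the last 3 of these were the lowest of the chromosome.

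The fullest window, from 9 to 10 Mb, had 50.3 kb covered by peaks, and the emptiest, from 15 to 16 Mb, had 10.4 kb. The count of a window and the strength or width of its peaks were at most weakly related. Across the 17 windows Spearman's coefficient between the count and the median negative log10 q-value was -0.10, and that between the count and the median width was -0.19. These coefficients describe windows of 1 list and carry no test. The median q-value was strongest in the sparse window from 14 to 15 Mb, at 3.57e-10 over 33 peaks. It was weakest from 16 to 17 Mb, at 0.000163 over 28 peaks, so a pair of sparse windows stood at opposite ends of the range. Each of the 17 windows held at least 2 peaks with a q-value below 1e-20, and the windows from 8 to 9 and from 9 to 10 Mb held 11 each.

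On the scale of 100 kb, the 174 complete windows held a median of 5 peaks. Both windows with the most, from 4 to 4.1 Mb and from 4.4 to 4.5 Mb, held 18. The first of them directly followed 1 of the 9 empty windows, that from 3.9 to 4 Mb. The 28 windows with 10 or more peaks, or 16.1% of the windows, held 331 peaks, or 34.1% of the chromosome's total. Of the 9 empty windows, 6 lay to the right of 14 Mb.

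**Figure D1:**
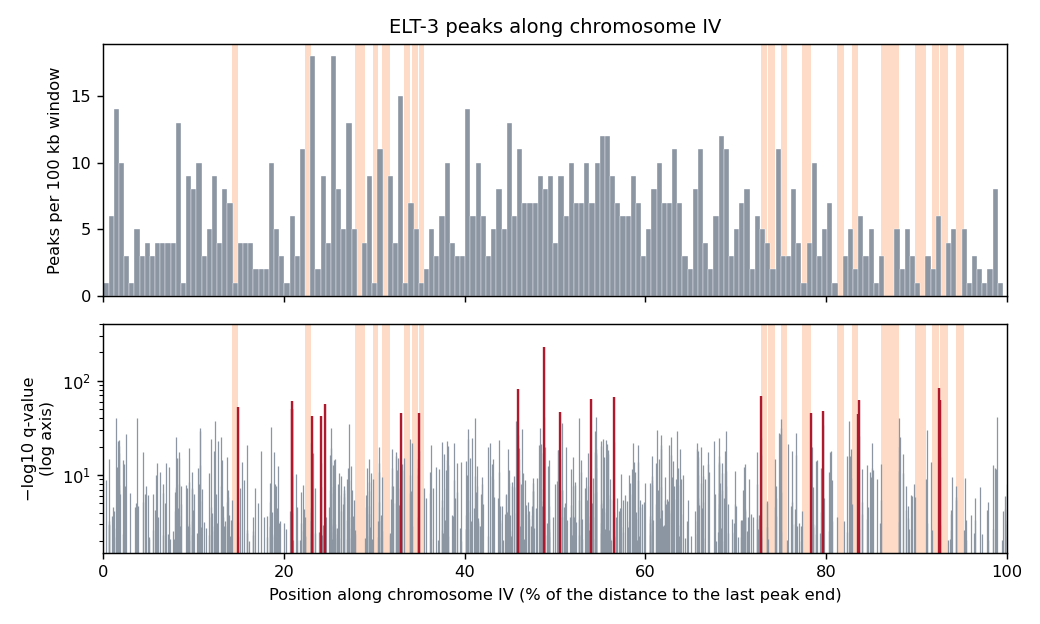
ELT-3 peaks along chromosome IV, with the position as percent of the distance from the first base to the last peak end. The upper panel shows the peaks in each complete 100 kb window and the lower panel the negative log10 q-value of every peak on a log axis, with the 20 strongest in red and the 19 peak-free stretches of 100 kb or more shaded. Counts fall and shaded stretches become frequent at the right end, while red lines are found on both sides of the middle.

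Over its whole length chromosome IV was neither dense nor sparse among the 6 chromosomes. It held 55.6 peaks per Mb, below chromosome I (63.1), III (61.6) and II (56.5) and above X (47.2) and V (41.7). Its density was 1.05 times that of the other 5 together, and 0.982 times when the sparse chromosome V was left out, so the direction depends on 1 chromosome. Per 100 protein-coding genes of the RefSeq table, IV held 29.6 peaks, against 33.0 on I, 32.1 on III, 30.5 on X, 25.01 on II and 17.5 on V. Peaks covered 2.84% of its length, against 3.05% of the other 5, and only V had a lower share, with 2.47%.

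The peaks of IV were unevenly shared between its sides. The left 33.3% of the length held 337 peaks, or 34.7% (interval 31.7% to 37.8%), the middle held 406, or 41.8% (38.7% to 44.99%), and the right held 228, or 23.5% (20.8% to 26.3%). The left share was the highest of the 6 chromosomes, the next being 30.3% on V (interval 27.2% to 33.4%). The right share was the lowest but for the 21.8% of V. Chromosomes II, III and X leaned the other way, with 20.3%, 28.4% and 26.5% of their peaks on the left and 36.0%, 33.5% and 36.9% on the right. The count per 1 Mb window varied by 34.5% of its mean on IV (coefficient of variation), between the 22.5% of III and the 48.3% of V.

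**Figure D2:**
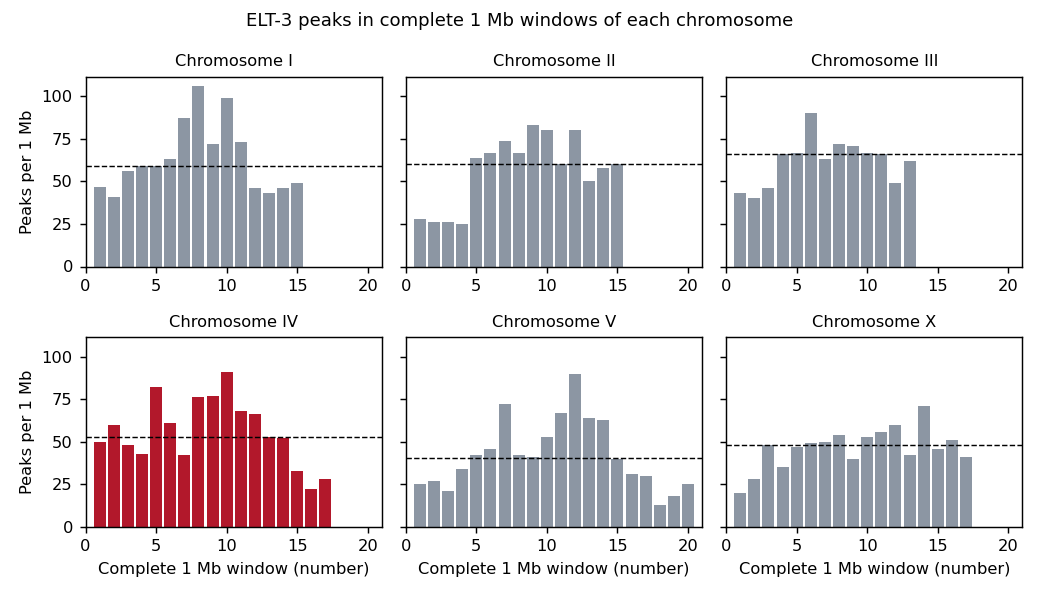
Peaks in each complete 1 Mb window, numbered from the left end, for the 6 chromosomes, with the median of each chromosome as a dashed line. On chromosome IV (red) the windows run from 22 to 91 peaks around a median of 53, and the last 3 are the lowest.

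Strong peaks were about as frequent on chromosome IV as elsewhere. A q-value below 1e-20 was held by 96 of its peaks, or 9.89% (interval 8.08% to 11.9%), where the whole list had 9.25%, and the single chromosomes ranged from 8.32% on I to 10.3% on V. Of the strongest 100 peaks of the list 18 were on IV, and of the strongest 1000 it held 205, or 20.5%, beside its 18.2% of all peaks. At q below 1e-10 its share was the highest of the 6, with 27.8% (interval 25.01% to 30.7%) against 23.4% to 25.8% on the others.

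The strongest peak of the chromosome, which was also the strongest of the whole list, lay at 8527218 to 8531667 and was 4450 bp wide, with a q-value of 1.91e-228. In strength it stood far above the others: the next 2 of IV had q-values of 9.75e-84 (16169377 to 16171673, 2297 bp) and 6.02e-82 (8027129 to 8028861, 1733 bp). These ranked only 22 and 24 in the list. In place the strongest peak had close neighbours. A peak of 1032 bp at 8525965 to 8526996, with a q-value of 1.44e-41, ended 221 bp to its left. Another, at 8534849 to 8535396 with 9.15e-21, began 3181 bp to its right. Places 4 and 5 on IV were narrow for their strength, with 748 bp at 12715782 to 12716529 (q-value 1.02e-68) and 801 bp at 9867786 to 9868586 (3.11e-67). Place 6, at 9438661 to 9442611, was 3951 bp wide with a q-value of 2.74e-64. Places 7 and 8 lay in the sparse right part. The former, at 16180497 to 16181507, was 1011 bp wide with a q-value of 2.11e-63, and the latter, at 14609723 to 14613857, was 4135 bp wide with 9.11e-63. Places 9 and 10 lay on the left, at 3653231 to 3654641 (1411 bp, 1.92e-61) and at 4294481 to 4295173 (693 bp, 1.14e-57). Places 2 to 10 were thus spread over much of the chromosome, and their widths ran from 693 to 4135 bp.

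Places 11 to 20 had q-values from 9.96e-54 to 5.49e-43. The widest of them was that at 3644773 to 3649255 (4483 bp) and the narrowest that at 13919148 to 13919601 (454 bp). Others on the left were the peaks at 2601911 to 2603339, 4030820 to 4031436, 4215163 to 4216552 and 5764221 to 5764850. Those at 6099696 to 6100337 and at 8824224 to 8824776 lay in the middle 33.3%, and those at 13682649 to 13683154 and at 14594066 to 14594716 on the right. The 20 strongest peaks had a median width of 906 bp, the lowest of the 6 chromosomes. The others ran from 1189.5 bp on I to 2293.5 bp on V. Of the 20 on IV, 9 reached 1300 bp, as many as on I and fewer than the 11 to 14 on the others.

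The 20 strongest peaks of IV were not gathered in the middle of the chromosome. Of its 20 strongest, 6 lay in the middle 33.3% of the length (30%, interval 11.9% to 54.3%), 7 on the left and 7 on the right. On the other autosomes the same count was 16 on I and 14 each on II, III and V, and on X it was 5. This comparison was made after the positions had been seen. With the middle 50% of the length it gave 8 of 20 on IV, 12 on X and 16 to 18 on the other autosomes. The difference was smaller further down the list. Among the 50 strongest of each chromosome 18 lay in the middle 33.3% on IV, against 17 on X and 25 to 34 on the other autosomes. Among the 100 strongest 48 did so on IV, against 39 on X, 43 on II and 55 to 60 on I, III and V. Over all peaks the middle share of IV was 41.8%, within the 38.2% to 47.9% of the other autosomes.

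Several of the strongest peaks lay near each other or at the edge of empty stretches. Within 20 kb of each other, by midpoint, were 3 pairs. The peaks at 16169377 and 16180497 were 8823 bp apart with 2 weaker peaks between them, those at 3644773 and 3653231 were 3975 bp apart with 2 between them, and those at 14594066 and 14609723 were 15006 bp apart with 1 between them. These 6 paired peaks compare with 3 to 6 among the 20 strongest of the other chromosomes. Another peak's edge lay within 1000 bp for 12 of the 20 strongest (60%) and for 30.2% of all peaks of IV, and on the other chromosomes this count was 11 to 16. At the same time 4 of the 20 bordered a peak-free stretch of 100 kb or more (3.91% of all peaks of IV did), where each other chromosome had 0 or 1. This contrast was not seen further down the list: among the 50 strongest IV had 5 and V 4, and among the 100 strongest IV and V had 6 each and II had 4.

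Peaks of chromosome IV were on the narrow side of the list. The median width was 404 bp (interval 389 to 420 bp), and the central 50% lay between 306.5 and 583.5 bp. Medians on the other chromosomes were 401 bp on I, 412 bp on III, 416.5 bp on II, 426 bp on V and 503.5 bp on X. The 95th percentile was 1151 bp, the lowest of the 6, against 1262 to 1457 bp elsewhere. Median widths in the complete 1 Mb windows of IV ran from 369 bp (9 to 10 Mb) to 478.5 bp (11 to 12 Mb). The fullest window thus had the narrowest median, but the sparser one from 3 to 4 Mb, with 43 peaks, had 370 bp.

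Broad peaks, of 1300 bp or more, numbered 41 on IV, or 4.22% (interval 3.05% to 5.68%), where the whole list had 5.10%. The other chromosomes had 4.63% on I to 6.24% on X, and of these only that of X lay above the interval of IV. The 5 widest were the peaks at 3644773 to 3649255 (4483 bp), at 17277184 to 17281642 (4459 bp, q-value 1.64e-41), at 8527218 to 8531667 (4450 bp), at 14609723 to 14613857 (4135 bp) and at 9438661 to 9442611 (3951 bp). The second of them lay near the right end of the mapped length, and no other peak edge was within 8159 bp of it. No peak of IV came near the widest of the list (8584 bp, on I). The 41 broad peaks made up 17.0% of all bases covered by peaks on IV. In the middle 33.3% of the length lay 19 of them (46.3%), beside 41.8% of all peaks of IV.

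Width and strength rose together on IV, with a Spearman coefficient of 0.617 over its 971 peaks, the highest of the 6 chromosomes, the others running from 0.491 on X to 0.578 on V. The coefficient is a description across peaks of 1 list. The strongest 25% of the peaks, with q-values up to 8.61e-12, had a median width of 611 bp and held 32 of the 41 broad peaks. The next 25% had a median of 426 bp, the third 363.5 bp, and the weakest 25% had 261 bp and no broad peak. Exceptions existed on both sides. Of the 96 peaks with a q-value below 1e-20, 18 were under 500 bp wide and the narrowest had 357 bp (q-value 9.08e-26). Among the broad peaks, 18 were weaker than 1e-20, and the weakest, at 12334168 to 12335545 with 1378 bp, had a q-value of 0.00043.

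**Figure D3:**
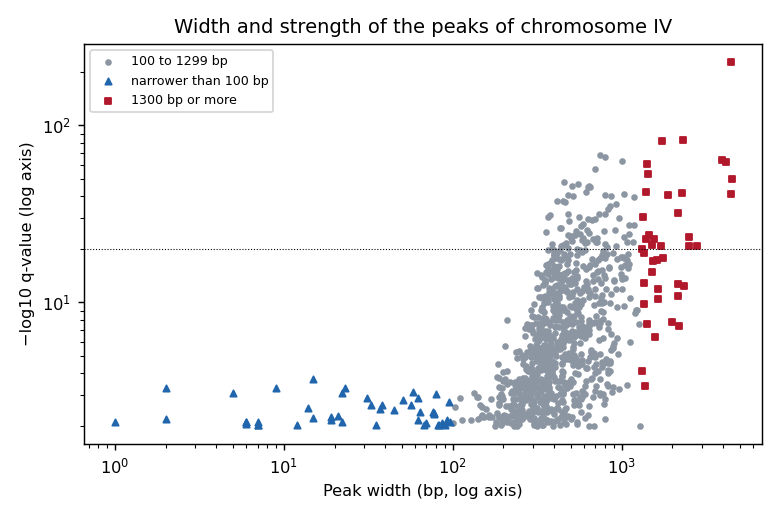
Width (log axis, in bp) and negative log10 q-value (log axis) of the 971 peaks of chromosome IV, with peaks narrower than 100 bp as blue triangles, broad peaks of 1300 bp or more as red squares and a dotted line at a q-value of 1e-20. The blue triangles all lie at the weak end, and 23 of the 41 red squares lie on or above the line.

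Very narrow peaks were more frequent on IV than on any other chromosome. Narrower than 100 bp were 46 of its peaks, or 4.74% (interval 3.49% to 6.27%), where the whole list had 2.34% and the other 5 chromosomes together 1.81% (1.43% to 2.25%). The single chromosomes had 2.42% on I, 2.41% on V, 2.12% on III, 1.28% on II and 0.719% on X. IV thus held 36.8% of the 125 such peaks of the list on 17.4% of the length. Its share was also the highest for peaks under 50 bp (2.78%, the next being 1.89% on I) and under 200 bp (8.86%, the next being 6.42% on I), and after peaks within 500 bp of each other had been joined (4.94%, the next being 2.48% on V).

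The very narrow peaks of IV were all weak. The strongest of them had a q-value of 0.000214 and the weakest 0.00961, the median was 0.0054, and none was in the stronger 50% of the list. Weak peaks in general were about as common on the other chromosomes: those with a q-value above 0.001 made up 24.0% on IV and 21.9% to 24.9% elsewhere. Among peaks with a q-value above 0.0002, a bound chosen after the values had been seen, 13.4% of 344 were narrower than 100 bp on IV (interval 9.96% to 17.4%). On the other 5 it was 5.02% of 1515 (3.97% to 6.24%) and at most 7.05% on any of them. The bound lies just below the strongest very narrow peak of IV and so keeps all of them. It also keeps most of the 79 very narrow peaks of the other 5 chromosomes, so weakness was not particular to those of IV. Why such peaks were more frequent on IV was not tested. The 5 narrowest were a peak of 1 bp at 5193446 (q-value 0.00751), peaks of 2 bp at 4732895 to 4732896 (0.000542) and at 9068318 to 9068319 (0.0065), a peak of 5 bp at 8586420 to 8586424 (0.000815) and a peak of 6 bp at 1293677 to 1293682 (0.00751). Peaks under 10 bp numbered 11 on IV and 17 on the other 5 chromosomes together. Regions this short are far shorter than the sonicated DNA fragments from which a ChIP-seq library is made.

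The very narrow peaks were spread along the chromosome, and most lay more than 1000 bp from another peak, as did most wider peaks. They occurred in 15 of the 17 complete 1 Mb windows, with at most 6 in a window (4 to 5 Mb). In the middle 33.3% of the length lay 16 of the 46 (34.8%), beside 41.8% of all peaks of IV. To the right of 14 Mb there were 2 among 102 peaks. The nearest other peak edge was a median of 4282 bp away, against 2289 bp for the wider peaks of IV and 2710 bp for the wider ones with a q-value above 0.0002. Within 1000 bp of another peak lay 9 of the 46 (19.6%), against 72 of 298 (24.2%) of the wider peaks in that range of q-values.

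**Figure D4:**
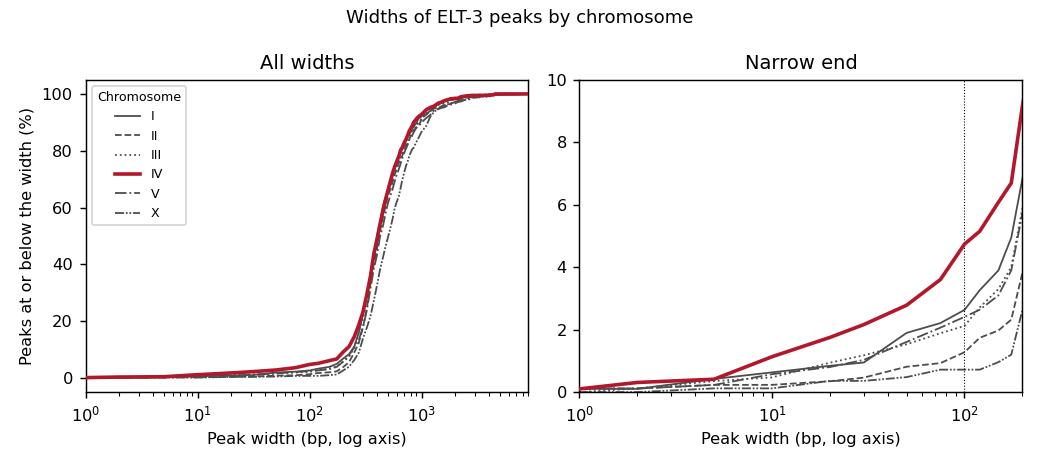
Share of peaks at or below each width (log axis, in bp) on the 6 chromosomes, over all widths on the left and for the narrow end on the right, with a dotted line at 100 bp. The red line of chromosome IV runs above the others from 10 bp to 300 bp, and beyond that it runs among or close to those of the other autosomes, while X is shifted to wider peaks.

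Close neighbours were about as common on IV as on I, II and III. Another midpoint lay within 2000 bp for 380 peaks, or 39.1% (interval 36.1% to 42.3%), where the whole list had 36.7%, with 38.5% to 39.5% on I, II and III and 31.4% and 31.5% on V and X. Of the 971 peaks 591 had no such neighbour. The others formed 113 pairs, 33 groups of 3 and 11 dense runs, meaning 4 or more peaks with each midpoint within 2000 bp of the next. The runs held 55 peaks, or 5.66%, close to the 5.55% of the whole list, and the other chromosomes had 8 runs (V) to 15 (II).

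With steps of up to 2000 bp, the largest run of the whole list by number of peaks was on IV. It had 8 peaks, against at most 7 on any other chromosome (X). With steps of up to 1500 bp this run fell into parts of fewer than 4 peaks. It lay near the left end, at 294205 to 304786, and its 8 peaks covered 45.2% of its 10582 bp. The strongest of them was the seventh from the left, at 302662 to 303690, with 1029 bp and a q-value of 2.75e-24, and the first, at 294205 to 295284, followed with 1080 bp and 4.91e-18. The 6 others had q-values from 1.66e-08 to 0.00786. Its strongest peaks thus lay toward its ends, with weaker ones between them.

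Next came 2 runs of 6 peaks. In that at 4028057 to 4033878 the third peak, at 4030820 to 4031436, was far stronger than the rest, with a q-value of 5.39e-43 against 1.07e-12 for the next. The run at 6652454 to 6658964 was more even: 4 of its 6 peaks had q-values below 1e-10, from 6.76e-24 for the first to 1.74e-13 for the fourth. Another 3 runs had 5 peaks. Those at 11897421 to 11903145 and at 13077717 to 13083448 had their strongest member in second and in middle place, with q-values of 3.75e-25 and 4.92e-28, and in the latter all 5 peaks had q-values of 1.23e-09 or below. The longest of the 3, at 11487850 to 11494537, had its strongest peak in first place (q-value 1.27e-22) and no peak weaker than 1.25e-10.

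Of the 11 runs, 6 lay to the left of 7 Mb, 5 between 9 and 14 Mb, and none to the right of 14 Mb or between 7 and 9 Mb. The longest spanned 10582 bp and the shortest 3245 bp, and peaks covered 33.9% to 67.9% of a run. A peak with a q-value below 1e-20 was found in 7 of them, and in 9 of the 11 the strongest peak was neither the first nor the last. The 55 peaks in runs had a median width of 530 bp and a median q-value of 3.84e-09. The 591 peaks without another midpoint within 2000 bp had 393 bp and 1.26e-05. They include broad peaks whose edge lay close to another peak, such as the strongest of the chromosome, 221 bp from the next. Among those 591, 49 had a q-value below 1e-20 (8.29%), against 9 of the 55 (16.4%) and 9.89% of all peaks of IV. The share in runs rests on few peaks and was not set beside that of other chromosomes.

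**Figure D5:**
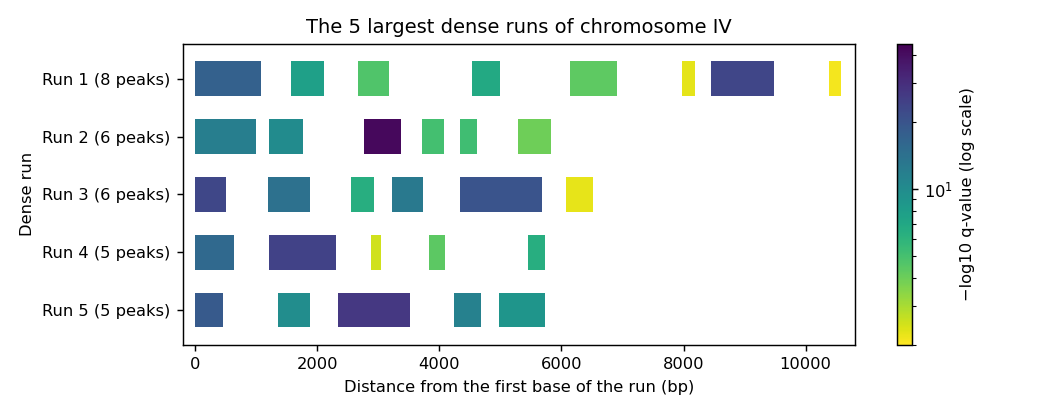
The 5 dense runs of chromosome IV with the most peaks (of the 3 runs of 5 peaks, the 2 shortest), each drawn from its first base, with every peak as a box as long as its width in bp and coloured by its negative log10 q-value (log scale). The darkest box, the third of run 2 (q-value 5.39e-43), has paler boxes on both sides, and run 5 shows 5 boxes of q-value 1.23e-09 or stronger.

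Stretches of 100 kb or more without a peak, measured from edge to edge, numbered 19 on IV and took up 2.78 Mb, or 15.9% of its length. The share was 7.75% on I, 8.35% on III, 15.3% on II, 22.3% on X and 27.7% on V. The longest lay at 15039891 to 15385181 with 345.3 kb and was the third longest between peaks in the whole list. It was followed by 203.1 kb at 4860378 to 5063438, 198.7 kb at 15702375 to 15901055, 173.6 kb at 13509092 to 13682648 and 151.7 kb at 12845038 to 12996693. The left side of the longest stretch was bordered by a peak with a q-value of 3.36e-06, and its right side by a peak of 390 bp with 1.19e-20.

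Most of these stretches lay in a pair of regions of the chromosome. To the right of 12 Mb there were 11 of the 19, and 6 lay between 4.8 and 6.3 Mb, with the remaining 2 further left, bounds that were chosen after the positions had been seen. Between 7 and 12 Mb there was none. The stretch from 4 to 7 Mb had 6 of them and 61.7 peaks per Mb, but its windows of 1 Mb differed, with 82, 61 and 42 peaks. From 14 Mb to the end, peaks were sparse (29.4 per Mb) and 7 empty stretches took up 1237 kb. The share of strong peaks there was close to that of the dense interior: 11 of 102, or 10.8% (interval 5.51% to 18.5%), had a q-value below 1e-20, against 40 of 378, or 10.6%, between 7 and 12 Mb, and 4 of the 20 strongest peaks of IV lay there. Of the 38 peaks that bordered an empty stretch 5 had a q-value below 1e-20 (13.2%), beside 9.89% of all peaks of IV. Among the 5 were those at 13682649, 14594066, 16180497 and 6099696.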

How the data were processed

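The authors deposited 1 combined list of 5338 peaks for the 4 libraries. Per the file headers its positions are in WormBase WS180, counted from 1, and every line names PeakSeq, a caller that compares ChIP with input. Per the deposited list each peak has a q-value (an adjusted p-value). The attribute and the score column agree in every line. Whether reads were pooled or calls merged, the aligner, the filters and the versions are not given in the sources used here. Per the labels' protocols, larvae were grown in liquid culture at 20 °C, fixed with 2% formaldehyde and sonicated. The lysis protocol speaks of embryos, while every sample is labelled as fed L1.

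Width was end minus start plus 1, position the midpoint, and the last peak end stood in for the chromosome's length. Values were computed with Python 3.11.15, pandas 2.3.3, NumPy 2.4.6 and SciPy 1.17.1, and the functions were checked on a made-up list. No test was run. The named places are the 20 strongest, 5 widest and 5 narrowest peaks, the 5 runs with most peaks, the 5 longest empty stretches and the extreme windows. Places outside this rule were named after their values were seen. The members, bounds and named sets were chosen with earlier results of these data known. Alternatives used the stronger 50% of the list, peaks within 500 bp joined, and other bounds, lengths and comparison chromosomes. Gene names, positions relative to genes and GATA letters were not analysed, because no genome of this build was used here.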

Additional observations from a re-analysis of the deposited data

How the results depend on the processing

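No paired analysis was possible because the libraries have no values of their own in the list, so no replicate could be left out either. Under 11 other settings values moved little: 4 density ratios ran from 1.02 to 1.07, and the others stayed within the counting interval or, for a count, within 1.5 times. The 27 moved values and 1 reversal are given here. The variation between windows and the width coefficient had no interval. All their other values count as moved, even where the difference was small. The density ratio of IV to the other 5 chromosomes, 1.05, turned to 0.982 without chromosome V, because V is the sparsest. Other bounds changed values by their construction. The middle 50% of the length held 61.5% of the peaks. Peaks under 50 bp made up 2.78% and under 200 bp 8.86%, those of 2000 bp or more 1.54%, and those with q below 1e-10 27.8%. Another midpoint lay within 1000 bp for 13.0% and within 5000 bp for 65.2%. Dense runs numbered 6 with steps of 1500 bp, 24 with 3000 bp and 44 with 3 or more peaks. Empty stretches numbered 43 from 75 kb and 89 from 50 kb. In the stronger 50% of the list, which leaves fewer and wider peaks, there were 0% narrow and 7.93% broad peaks, a median width of 498.5 bp, 4 runs, 29.3% with a neighbour, 45 empty stretches, a variation of 36.6% and a width coefficient of 0.448. With peaks within 500 bp joined there were 7.86% broad peaks, 3 runs, 26.4% with a neighbour, a variation of 32.3% and a coefficient of 0.618. The variation was 31.2% with windows shifted by 500 kb and 38.6% with 500 kb windows. The share of the 20 strongest peaks in the middle 33.3%, chosen after seeing the data, was 30%. Its interval, 11.9% to 54.3%, is so wide that all 5 alternatives fell within it, which says little. Among these, the middle 50% of the length, with 40%, is a different measure. The share in the middle 33.3% was 40% for the 10 strongest, 36% for the 50 strongest and 48% for the 100 strongest. The read depth, and with it how weak a place could still be called, is unknown.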

Other observations

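The deposited list was not in the order of its q-values: from 1 line to the next the q-value fell 1329 times. It was in the order of the product of q-value and place in the list, which never fell. This product took the same value (within a relative 1e-06) as that of an adjacent line for 1872 peaks, or 35.1% of the list. On chromosome IV this held for 40 of the 46 peaks narrower than 100 bp (87.0%), and for 194 of the 298 wider peaks with a q-value above 0.0002 (65.1%). On the other 5 chromosomes the counts were 59 of 79 (74.7%) and 817 of 1439 (56.8%). The largest such group among the narrow peaks of IV had 5 peaks of 1 to 22 bp with q-values of 0.00751 to 0.00752, and no peak of another chromosome shared its value. The narrow and the wider peaks compared here were not matched in q-value beyond that bound. What the shared values stem from was not tested.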
